A study of Mus musculus with 7 samples.

Results

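The Hox genes encode homeodomain transcription factors and lie in 4 clusters of the mouse genome, Hoxa on chromosome 6, Hoxb on chromosome 11, Hoxc on chromosome 15 and Hoxd on chromosome 2. They were taken here as every probe whose accession matched a mouse gene named Hoxa, Hoxb, Hoxc or Hoxd with a number, antisense transcripts left out. All 39 such genes of the RefSeq gene table were on the array, read by 44 probes, among 21154 named genes. There are 11 in Hoxa, 10 in Hoxb, 9 in Hoxc and 9 in Hoxd. Of the 39, 30 were above background widely enough to be tested, beside 18026 genes in all.

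Within a cluster the genes are numbered by paralogue group from the 3′ end to the 5′ end. In the embryo, genes with low numbers are active from the hindbrain backwards and genes with high numbers only towards the tail and the ends of the limbs. Adult connective tissue cells, dermal fibroblasts among them, keep part of the Hox pattern of the place on the body they came from. Trunk tissue of the thoracic and abdominal level is known for the central groups, while paralogue groups 10 to 13 belong to the lumbar, sacral and tail levels, the distal limbs and the urogenital tract.

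The arrays are 1-colour Agilent arrays of RNA that, by the labels, came from dermal sheath cells, the mesenchymal layer around the hair follicle, of mice at postnatal day 15. The cells were sorted from the skin of the back for the YFP reporter and against CD34, alkaline phosphatase and integrin α8. Of the genes of this gate, Cd34 had 5.61, 5.59, 5.64 and 4.72 on the cΔex3 arrays, against 0.61, 0.12 and 0.94 on the control arrays, in log2 units above the array's 75th percentile (4.84 higher; limma adjusted p = 4.49e-05), and Alpl and Itga8 were above background on all 7 arrays. By its title the study asked what β-catenin activation does in this layer. Of the 7 arrays, 4 carry the label cΔex3 and in their titles β-catenin activation; they hold RNA of 6 mice, arrays 2 and 3 pooling 2 mice each. The other 3 are labelled control and hold RNA of 4 mice, array 3 pooling 2. Both groups share the reporter and the sort; what drives the allele and the reporter is not given in the sources used here. The replicates are labelled biological replicates of separate mice.

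Markers of other cell types were bright on these arrays and go against the labelled cell type in both groups, which are therefore called by their labels throughout. Values below are log2 of the processed signal relative to each array's 75th percentile, so that 0 is the 75th percentile and a difference of 1 is 2-fold. That percentile was 1858, 1348, 1659 and 2160 on the cΔex3 arrays, against 763.2, 756.1 and 906.7 on the control arrays, and 68% to 82% of probes were well above background against 68.5% to 70.7%. The median of 20 hepatocyte genes was −1.64 to 1.25 on the cΔex3 arrays, against 8.76 to 9.11 on the control arrays, where Alb, the serum albumin gene, was at 9.54 to 9.92. Their summed signal was 304 to 528 times the 75th percentile, 81.7% to 96.7% of it from Cyp2e1, Trf and Pck1, against 7340 to 9550 times. The median of 12 adipocyte genes was 6.40 to 7.72 on the cΔex3 arrays, where Adipoq, the adiponectin gene, was at 6.53 to 8.08, against −0.32 to 0.79 on the control arrays. Their summed signal was 1090 to 2070 times, against 297 to 428 times, 64.5% to 87.5% of the control sum from Car3. Of 10 genes of the dermal sheath and smooth muscle, all 10 were above background on every cΔex3 array and 9 on every control array, where Lmod1, a smooth muscle actin regulator, was on 0 of 3. Their summed signal was 98.9 to 218 times the 75th percentile on the cΔex3 arrays, against 24.4 to 35.9 times on the control arrays. These levels moved with the groups and so with every Hox difference below, and their part in the results was not tested. A difference by genotype and a difference in the tissue the RNA came from cannot be told apart here, and whether each array holds the RNA its label names is not known. In such RNA, fewer cells of a type and less RNA per cell cannot be told apart. Ctnnb1, the gene that the allele alters, differed by −0.02 (limma adjusted p = 0.902); the exon its probe reads is not known here, so this checks nothing about the allele.

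**Figure D1:**
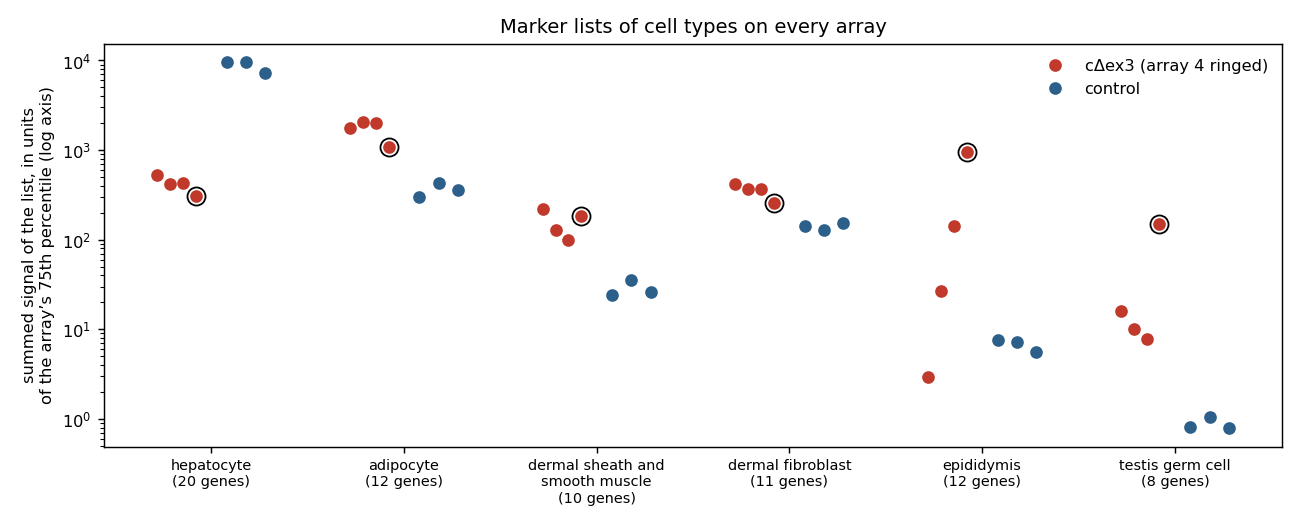
Summed signal of 6 lists of cell type markers on each array, in units of the array's 75th percentile on a log axis, with 1 point per array and cΔex3 array 4 ringed. The hepatocyte genes sum to 304 to 528 on the cΔex3 arrays and 7340 to 9550 on the control arrays, and the epididymis genes reach 946 on cΔex3 array 4. A sum is led by its brightest genes.

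The differences described below were small beyond paralogue group 9 in Hoxc and Hoxd. Start sites on both sides of that step in Hoxd are printed to show the sequences there, with those of the Hoxa gene of the largest difference and its neighbour. Of the 39 genes, 22 had an entry among RefSeq start sites (GRCm38.p6). Each stretch runs from 250 bases before the start to 50 bases after it, and 6 are shown. Hoxa7, which was 105-fold higher on the cΔex3 arrays, and Hoxa9, its neighbour in the cluster, which did not pass the threshold, lie at chr6:52218524-52218823 and chr6:52227321-52227620 on the minus strand. In Hoxd, Hoxd8 at chr2:74704365-74704664 and Hoxd9 at chr2:74697513-74697812 were far higher on the cΔex3 arrays. Hoxd10 at chr2:74691641-74691940 differed little, and Hoxd12 at chr2:74674763-74675062 was above background on 0 of 7 arrays. These 4 lie on the plus strand. Capitals mark matches on either strand to TATAAA (the TATA box), CCAAT (the CCAAT box), GGGCGG (the GC box), TGATNNAT (a Pbx-Hox site), TTTATNG (a site of Cdx and posterior Hox proteins) and CTTTGAT (a Tcf/Lef site).
Hoxa7: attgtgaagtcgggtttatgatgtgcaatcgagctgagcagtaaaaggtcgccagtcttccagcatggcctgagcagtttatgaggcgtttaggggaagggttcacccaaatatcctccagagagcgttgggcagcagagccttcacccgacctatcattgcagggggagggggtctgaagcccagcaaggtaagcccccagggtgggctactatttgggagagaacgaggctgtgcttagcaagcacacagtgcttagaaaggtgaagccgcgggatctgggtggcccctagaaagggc
Hoxa9: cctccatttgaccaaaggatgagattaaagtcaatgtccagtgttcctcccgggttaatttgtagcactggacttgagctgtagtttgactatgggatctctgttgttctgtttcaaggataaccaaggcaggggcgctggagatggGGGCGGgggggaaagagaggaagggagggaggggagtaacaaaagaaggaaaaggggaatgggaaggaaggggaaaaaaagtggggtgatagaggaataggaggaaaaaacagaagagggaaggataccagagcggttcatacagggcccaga
Hoxd8: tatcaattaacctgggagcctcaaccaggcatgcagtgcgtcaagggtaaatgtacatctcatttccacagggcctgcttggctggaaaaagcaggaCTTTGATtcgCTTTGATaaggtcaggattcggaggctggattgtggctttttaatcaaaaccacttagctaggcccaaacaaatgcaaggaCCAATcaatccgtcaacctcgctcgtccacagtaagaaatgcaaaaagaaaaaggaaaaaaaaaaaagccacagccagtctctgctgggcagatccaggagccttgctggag
Hoxd9: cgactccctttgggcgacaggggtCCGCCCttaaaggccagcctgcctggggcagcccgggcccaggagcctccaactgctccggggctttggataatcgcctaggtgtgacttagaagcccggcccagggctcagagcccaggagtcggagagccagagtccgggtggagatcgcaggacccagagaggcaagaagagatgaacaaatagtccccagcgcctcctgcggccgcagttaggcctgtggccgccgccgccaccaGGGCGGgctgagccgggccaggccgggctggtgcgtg
Hoxd10: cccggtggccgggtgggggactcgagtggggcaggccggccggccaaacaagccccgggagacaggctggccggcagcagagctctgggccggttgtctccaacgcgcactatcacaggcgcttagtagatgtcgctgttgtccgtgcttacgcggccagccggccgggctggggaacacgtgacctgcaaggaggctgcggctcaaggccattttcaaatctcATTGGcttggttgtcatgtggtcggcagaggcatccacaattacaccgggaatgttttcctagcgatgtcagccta
Hoxd12: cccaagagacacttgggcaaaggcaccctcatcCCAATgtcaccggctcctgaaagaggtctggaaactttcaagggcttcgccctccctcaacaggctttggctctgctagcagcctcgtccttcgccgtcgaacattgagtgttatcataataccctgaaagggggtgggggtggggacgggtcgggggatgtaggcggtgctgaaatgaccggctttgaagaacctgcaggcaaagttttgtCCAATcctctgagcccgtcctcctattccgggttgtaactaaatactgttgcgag

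The matches describe letters only. Hoxd8 held the Tcf/Lef letters at −153 to −147 and again at −143 to −137 relative to the start, and was the only one of the 22 Hox stretches with them (4.55%), against 3.73% of 32841 stretches of all genes. The CCAAT box was in 14 of 22 Hox stretches (63.6%), against 37.4% of all; here Hoxd8, Hoxd10 and Hoxd12 had it, so that it was found on both sides of the step. The GC box was in 9 of 22 (40.9%), against 35.7%, among them Hoxa9 and Hoxd9. The TATA box was in 3 (13.6%), against 13.6%, the Pbx-Hox letters in 3 (13.6%), against 8.85%, and the Cdx letters in 2 (9.09%), against 10.9%. No motif searched was in the Hoxa7 stretch. The motifs share no letters at the matches printed. The dinucleotide CG stood 9 times in Hoxa7 and 4 times in Hoxa9, and 6, 20, 22 and 13 times in Hoxd8, Hoxd9, Hoxd10 and Hoxd12, with a median of 13.5 over the 22 Hox stretches against 7 over all.

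MicroRNA genes lie between paralogue groups 9 and 10, or where group 10 would be, in 3 clusters. In the order of the RefSeq table, Mir196b lies between Hoxa9 and Hoxa10, Mir196a-2 between Hoxc9 and Hoxc10, and Mir196a-1 on the side of Hoxb9 that faces Hoxb13. Their mature 5p forms share the seed in capitals, and miR-196a is known to cut the mRNA of Hoxb8. The microRNAs themselves were not analysed here.
miR-196b-5p: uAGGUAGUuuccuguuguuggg
miR-196a-5p: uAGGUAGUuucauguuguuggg

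Hox genes as a group were higher on the cΔex3 arrays. Of the 30 tested, 26 rose, 1 fell (Hoxc12) and 3 (Hoxa9, Hoxa11 and Hoxc10) did not pass the threshold (limma, adjusted p under 0.05 over all 18026 genes tested), where 24% of all tested genes were called higher and 29% lower. The median fitted difference was 3.57 over the tested Hox genes and −0.08 over all tested genes. Of the 30, 10 were above background on no control array, so that their fitted differences are not measured on that side; with these at their lower bound the Hox median was 3.32. All 4 cΔex3 arrays lay above all 3 control arrays for 25 of the 30, against 26.1% of all tested genes, and below them for 1, against 32.6%. At least an 8-fold rise was found for 18 of them and for 6.93% of all tested genes.

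The count does not rest only on genes that entered the test through the cΔex3 arrays. Among the 17 Hox genes above background on all 7 arrays, 15 were higher, against 22.7% of such genes overall. With no filter on dim probes, 25 of all 39 were higher, against 19.8%. The calls of 21 genes, with fitted differences from 2.45 to 9.32, held in every one of up to 19 other settings planned for them, over which their adjusted p stayed at or below 0.0383. The calls of Hoxa2, Hoxa4, Hoxa6, Hoxa10 and Hoxd10 did not. Without scaling between arrays the median of all genes was 1.02 and that of the Hox genes 4.67; after another background correction (normexp) these were −0.22 and 2.48. By the file headers a row of the slide held both groups. Within row 1 (cΔex3 array 1, control arrays 1 and 2) 24 were higher, against 22.1% of all genes; the lone cΔex3 array was assumed to vary like the 2 control arrays, so the count says nothing about spread among cΔex3 mice. Within row 2 (cΔex3 arrays 2 to 4, control array 3), where the lone control array was likewise assumed to vary like the others, 8 passed and all 27 called genes kept their direction, against 2.91% of all genes called higher. By the rows in the file names, which differ from the headers, row and group cannot be told apart.

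**Figure D2:**
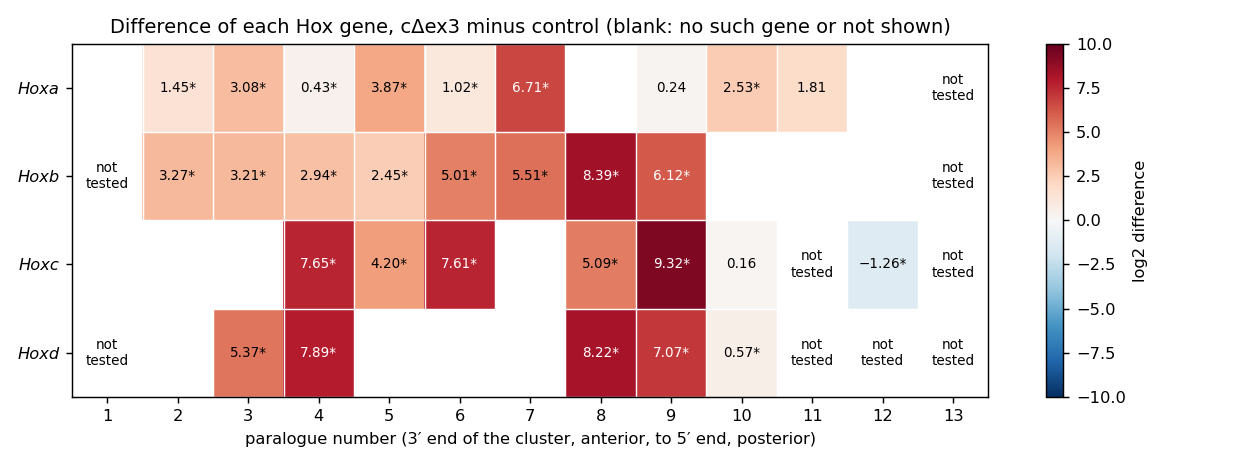
Differences of Hox genes, cΔex3 minus control, on the log2 scale, by cluster (rows) and paralogue number (columns), with an asterisk where limma's adjusted p was under 0.05; the values are fitted and, for 10 genes above background on no control array, not measured on that side. The 15 genes of groups 4 to 8 all carry an asterisk with positive differences, from 0.43 to 8.39, whereas groups 10 to 13 hold differences between −1.26 and 2.53 and 7 untested genes.

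The differences varied with position along the clusters. In paralogue groups 1 to 9 there are 27 genes, of which 25 were tested and 24 rose, with a median of 5.01, where 24% of all tested genes were called higher. Of the 25, 7 were above background on no control array and so entered the test through the cΔex3 arrays. In groups 10 to 13 there are 12 genes, of which 5 were tested, 3 of them likewise through the cΔex3 arrays. Of these 5, 2 rose and 1 fell, with a median of 0.57. These 5 were dim in both groups, with means of −6.06 to −4.74 on the cΔex3 arrays and −7.87 to −4.21 on the control arrays. The lowest signal above background was −7.15 to −5.59 by array, so that their differences are read close to background. With genes unmeasured on the control arrays at their bound, the medians were 3.87 and 0.16. All 15 genes of groups 4 to 8 were tested and rose. The boundary after group 9 was chosen with these values known and is a description. Group 9 held fitted differences of 0.24 (Hoxa9), 6.12 (Hoxb9), 9.32 (Hoxc9, at least 7.3) and 7.07 (Hoxd9, at least 4.79). Group 10 held 2.53 (Hoxa10, at least 0.96), 0.16 (Hoxc10) and 0.57 (Hoxd10, at least 0.39). The step was thus found in Hoxc and Hoxd. Hoxa showed no such step, since Hoxa4 (0.43) and Hoxa6 (1.02) differed little before Hoxa7. After it Hoxa10 was called higher, a call that was lost in some settings.

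Detection was highest in the same positions. It is not scaled between arrays, so that a brighter array can have more probes above background. Of all probes, 81%, 68%, 70% and 82% were well above background on cΔex3 arrays 1 to 4. On control arrays 1 to 3 these were 70.7%, 68.9% and 68.5%. Of the 39 genes, 32, 27, 30 and 31 were well above background on cΔex3 arrays 1 to 4, against 19, 20 and 18 on control arrays 1 to 3. Of the 27 genes of groups 1 to 9 these were 25, 25, 25 and 26, against 17, 17 and 16. Of the 12 genes of groups 10 to 13 they were 7, 2, 5 and 5, against 2, 3 and 2. The groups did not overlap for groups 1 to 9, whereas cΔex3 array 2 lay within the control range for groups 10 to 13. On all 4 cΔex3 arrays 27 genes were above background, and on all 3 control arrays 17. Exactly 8 genes, Hoxb8, Hoxc8, Hoxc9, Hoxd3, Hoxd4, Hoxd8, Hoxd9 and Hoxd10, were above it on every cΔex3 array and on no control array. The share of all genes with this pattern was not counted.

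**Figure D3:**
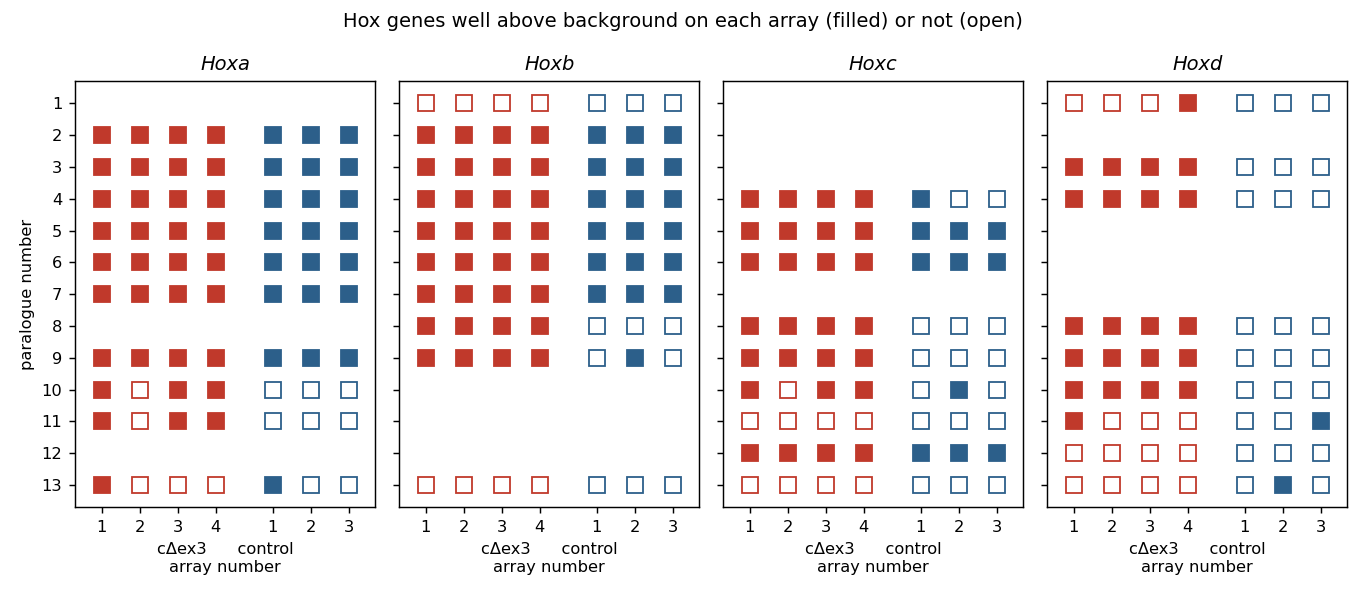
Each square is a Hox gene on an array, filled where at least 1 of its probes was well above background, with paralogue number down the page and, in each panel, cΔex3 arrays left of control arrays. All 5 Hoxd genes of groups 3 to 10 are filled on the 4 cΔex3 arrays and open on the 3 control arrays, while groups 11 to 13 are mostly open in all panels but for Hoxa11 and Hoxc12.

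The 9 genes that were not tested lie at the ends of the clusters. Hoxb1, a hindbrain gene of the 3′ end, and Hoxb13, Hoxc11, Hoxc13 and Hoxd12 of the 5′ end were above background on 0 of 7 arrays. Hoxc13 is known for its role in hair and nail, where it drives hair keratin genes, and Hoxb13 for the tail and the prostate. Hoxd1 was above background on cΔex3 array 4 alone, at −4.37, and Hoxd13, a gene of digits and the urogenital tract, on control array 2 alone, at −5.05. Hoxa13, its paralogue, was above background on cΔex3 array 1 and control array 1 by 1 of its 2 probes, at −6.12 and −5.32. Hoxd11, a gene of the forearm and kidney, was above it on cΔex3 array 1 and control array 3.

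In the values that follow, arrays come in the order of their numbers, cΔex3 arrays 1 to 4 and control arrays 1 to 3. Levels belong to 1 probe each and are compared within a gene only.

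Hoxa had the smallest differences of the clusters, with a median of 2.17 over 10 tested genes (1.23 with 2 unmeasured on the control arrays at their bound), of which 8 rose. Its genes of groups 2 to 7 and 9 were above background on all 7 arrays. Hoxa7, a gene of the thoracic vertebrae, had 3.72, 3.58, 3.33 and 2.51 on the cΔex3 arrays, against −3.43, −3.09 and −3.75 on the control arrays. The difference of 6.71 ± 0.33 (SE; adjusted p = 1.77e-05), or 105-fold, was the highest of the cluster and the groups stood far apart. Hoxa5, which patterns the neck and the lung, had −0.26, −0.29, −0.52 and −1.28 on the cΔex3 arrays, against −4.83, −4.56 and −3.97 on the control arrays, a difference of 3.87 ± 0.33 (SE; adjusted p = 0.000136). Hoxa3, needed for the thymus and parathyroid, had 1.58, 1.11, 0.92 and 0.46, against −2.19, −2.20 and −1.78, a difference of 3.08 ± 0.29 (SE; adjusted p = 0.000196). In all 3 genes cΔex3 array 4 was the lowest of its group and still above every control array.

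Hoxa2, a gene of the hindbrain, rose less. Hoxa2 had −2.10, −2.49, −2.98 and −3.63 on the cΔex3 arrays, against −4.64, −4.14 and −3.98 on the control arrays, a difference of 1.45 ± 0.38 (SE; adjusted p = 0.0167). The lowest cΔex3 array and the highest control array of Hoxa2 were close, and the call was lost without control array 1 (1.26, adjusted p = 0.066). It was also lost with normexp (0.59, adjusted p = 0.147) and with arrays of 1 mouse only (1.52, adjusted p = 0.129).

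Hoxa6 and Hoxa4, vertebral patterning genes of the cervical and thoracic level, changed little. Hoxa6 had −2.32, −2.73, −2.37 and −2.65 on the cΔex3 arrays, against −3.37, −3.67 and −3.57 on the control arrays, a difference of 1.02 ± 0.18 (SE; adjusted p = 0.00322), or 2.03-fold. With normexp the Hoxa6 difference was 0.36 (adjusted p = 0.0976) and the call was lost. Hoxa4 had −3.17, −3.41, −3.43 and −3.36, against −3.74, −3.72 and −3.87, a difference of 0.43 ± 0.15 (SE; adjusted p = 0.0478). Its groups did not overlap, yet the call was marginal: it fell short of the threshold in 13 of 19 other settings, among them the 7 that leave out 1 array (0.37 to 0.46), and was also lost with normexp, where the difference was −0.12 (adjusted p = 0.493).

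From Hoxa9 towards the 5′ end the groups overlapped in every tested gene of the cluster. Hoxa9, which acts with its paralogues in the lower back and in blood stem cells, had −3.20, −3.24, −3.10 and −2.93 on the cΔex3 arrays, against −3.40, −3.18 and −3.47 on the control arrays. The groups overlapped, with a difference of 0.24 (95% interval −0.15 to 0.62; adjusted p = 0.261), and its second probe gave −0.70 (adjusted p = 0.0204), so that its probes disagreed. Hoxa10, a gene of the lumbar spine and the uterus, had −4.12, −6.45, −4.08 and −4.30, against −6.20, −7.86 and −7.74. It was above background on 3 of 4 cΔex3 arrays and on 0 of 3 control arrays and was at least 1.94-fold higher (adjusted p = 0.02 for the fitted difference of 2.53). The call was lost without cΔex3 array 1 (2.32, adjusted p = 0.0523), control array 2 (2.24, adjusted p = 0.0736) or control array 3 (2.29, adjusted p = 0.0673), and normexp gave −0.06 (adjusted p = 0.828). Hoxa11, a gene of the forearm, the kidney and the uterus, had −4.45, −7.97, −5.80 and −6.04, against −7.93, −7.92 and −7.77. The fitted difference was 1.81 (95% interval 0.07 to 3.55; adjusted p = 0.0754). Hoxa11 was above background on 0 of 3 control arrays, so that this is not measured on that side, and its bound was under 1-fold. On cΔex3 array 2 both Hoxa10 and Hoxa11 were not well above background. Without that array the fitted Hoxa11 difference passed (2.44, adjusted p = 0.00624), whereas normexp gave −0.43 (adjusted p = 0.141).

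**Figure D4:**
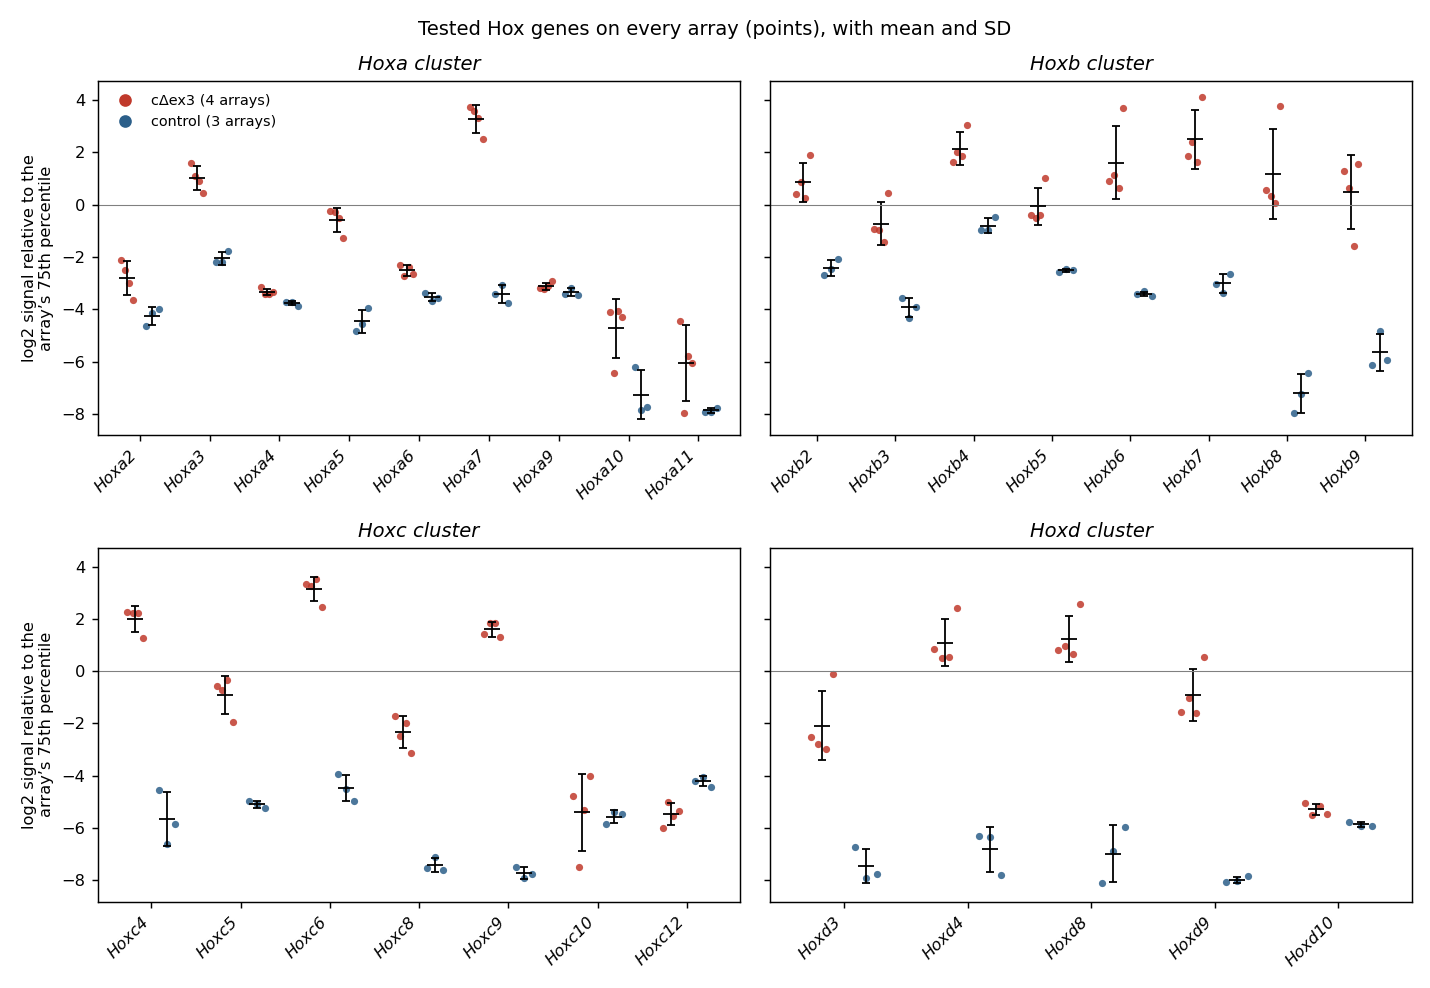
Log2 signal relative to the array's 75th percentile of 29 tested Hox genes, in 4 panels by cluster, with 1 point per array, cΔex3 left of control for each gene, and the mean with its SD as a black bar. The 2 groups are furthest apart at Hoxc9 (1.60 against −7.72) and close together at Hoxa4, Hoxa9, Hoxc10 and Hoxd10.

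All 8 tested genes of Hoxb rose, with a median of 4.14. The cluster had its largest differences towards the 5′ end. Hoxb8, a gene of the spinal cord that also acts in blood progenitors, had 0.56, 0.31, 0.06 and 3.76 on the cΔex3 arrays, against −7.96, −7.24 and −6.45 on the control arrays, none of which was well above background. It was at least 117-fold higher (adjusted p = 0.000432 for the fitted difference of 8.39), or at least 64.3-fold without cΔex3 array 4. Hoxb9, a rib patterning gene, had 1.30, 0.64, −1.58 and 1.56, against −6.15, −4.84 and −5.94, a difference of 6.12 ± 0.78 (SE; adjusted p = 0.000787). Here cΔex3 array 3 stood low and without it the difference was 6.81.

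Hoxb7 and Hoxb6, genes of the thoracic level, rose by like amounts. Hoxb7 had 1.85, 2.38, 1.62 and 4.11 on the cΔex3 arrays, against −3.02, −3.38 and −2.64 on the control arrays, a difference of 5.51 ± 0.60 (SE; adjusted p = 0.000389). Hoxb6 had 0.92, 1.15, 0.65 and 3.68, against −3.42, −3.32 and −3.48, a difference of 5.01 ± 0.71 (SE; adjusted p = 0.00127), or 4.31 without cΔex3 array 4. In both genes cΔex3 array 4 stood above the other 3 arrays of its group, which lay within 0.76 of each other.

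The 3′ genes of Hoxb rose by less. Hoxb2, which patterns the hindbrain, had 0.41, 0.87, 0.25 and 1.90 on the cΔex3 arrays, against −2.68, −2.48 and −2.09 on the control arrays, a difference of 3.27 ± 0.41 (SE; adjusted p = 0.000751). Hoxb4, known for the expansion of blood stem cells, had 1.64, 2.00, 1.86 and 3.05, against −0.98, −0.97 and −0.46, a difference of 2.94 ± 0.36 (SE; adjusted p = 0.000678). Hoxb3 had −0.94, −0.99, −1.43 and 0.45, against −3.57, −4.32 and −3.91, a difference of 3.21 ± 0.46 (SE; adjusted p = 0.00125). The second Hoxb3 probe, above background on no control array, gave 4.96 (adjusted p = 1.1e-05), in the same direction, and had its 4 cΔex3 arrays between −1.25 and −0.96. Hoxb5, a gene of the shoulder level, had −0.39, −0.50, −0.40 and 1.01, against −2.59, −2.47 and −2.50, a difference of 2.45 ± 0.39 (SE; adjusted p = 0.00194). In each of these 4 genes the groups did not overlap.

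Hoxc, whose genes of the central groups mark the thoracic level and the skin, had a median of 5.09 over 7 tested genes (4.20 with 2 at their bound), of which 5 rose and 1 fell. Hoxc9, a gene of the thoracic motor neurons and ribs, had 1.42, 1.86, 1.83 and 1.29 on the cΔex3 arrays, against −7.48, −7.92 and −7.77 on the control arrays, none of which was well above background. It was at least 157-fold higher (adjusted p = 7.38e-06 for the fitted difference of 9.32 ± 0.22, SE), the largest bound among the Hox genes. Hoxc6, which is active in the skin and mammary gland, had 3.32, 3.24, 3.53 and 2.46, against −3.95, −4.51 and −4.96, a difference of 7.61 ± 0.34 (SE; adjusted p = 1.25e-05), or 195-fold. On the cΔex3 arrays the SD was 0.29 for Hoxc9 and 0.47 for Hoxc6. On the control arrays it was 0.23 for Hoxc9 and 0.5 for Hoxc6. The control values of Hoxc9 lay at background, so that their SD and the SE do not describe the spread of a measured level.

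The other central Hoxc genes followed. Hoxc4 had 2.28, 2.23, 2.21 and 1.26 on the cΔex3 arrays, against −4.54, −6.59 and −5.84 on the control arrays, a difference of 7.65 ± 0.51 (SE; adjusted p = 5.08e-05), with 1 of 3 control arrays above background. Hoxc8, a gene of the lower thoracic vertebrae and spinal cord, had −1.71, −2.48, −1.97 and −3.13, against −7.53, −7.10 and −7.60, and was at least 10.4-fold higher (adjusted p = 6.38e-05 for the fitted difference of 5.09). Hoxc5 had −0.56, −0.72, −0.35 and −1.96, against −4.98, −5.07 and −5.23, a difference of 4.20 ± 0.39 (SE; adjusted p = 0.000196). In all 3 the lowest cΔex3 array was array 4, and it still lay above every control array.

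Beyond Hoxc9 the cluster changed. Hoxc10, a gene of the lumbar level and the hindlimb, had −4.79, −7.49, −5.31 and −4.02 on the cΔex3 arrays, against −5.83, −5.38 and −5.48 on the control arrays. The groups overlapped, with a difference of 0.16 (95% interval −1.65 to 1.97; adjusted p = 0.874), and its sign turned without cΔex3 array 1 (−0.04) or 4 (−0.30) and with normexp (−0.46). Hoxc12, which lies next to Hoxc13, was the only Hox gene that fell. It had −6.01, −5.00, −5.54 and −5.35, against −4.19, −4.04 and −4.41, a difference of −1.26 ± 0.26 (SE; adjusted p = 0.00625) with no overlap. Without scaling between arrays it was −0.16 (adjusted p = 0.586), and the call was lost.

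Of the 9 genes of Hoxd, 4 were not tested. The 5 tested were above background on the cΔex3 arrays alone and so entered the test only through them. All 5 were called higher, a count that this way of entry favoured. Their differences have only lower bounds, with a median of 4.79. Hoxd8, which acts with its paralogues in the thoracic region, had 0.82, 0.97, 0.64 and 2.55 on the cΔex3 arrays, against −8.11, −6.88 and −5.94 on the control arrays, and was at least 123-fold higher (adjusted p = 9.65e-05 for the fitted difference of 8.22). Hoxd4, a gene of the upper neck, had 0.84, 0.51, 0.56 and 2.41, against −6.30, −6.35 and −7.80, and was at least 109-fold higher (adjusted p = 7.87e-05 for 7.89). Hoxd9, which acts in the limb and the lower spine, had −1.56, −1.03, −1.60 and 0.54, against −8.07, −8.02 and −7.85, and was at least 27.6-fold higher (adjusted p = 7.87e-05 for 7.07). Control arrays held these genes at the level of background, so that only a bound can be given.

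The remaining Hoxd genes differed widely in size. Hoxd3, a gene of the first neck vertebrae, had −2.50, −2.77, −2.96 and −0.12 on the cΔex3 arrays, against −6.71, −7.90 and −7.77 on the control arrays, and was at least 12.2-fold higher (adjusted p = 0.00102 for 5.37), or at least 7.74-fold without cΔex3 array 4. Hoxd10, a gene of the lumbar spinal cord and the limbs, had −5.05, −5.49, −5.14 and −5.46, against −5.75, −5.91 and −5.92. Its groups did not overlap, but it was only at least 1.31-fold higher (adjusted p = 0.0317 for 0.57). The Hoxd10 call was lost without cΔex3 array 1 (0.49) or 3 (0.52) or control array 1 (0.63), 2 (0.55) or 3 (0.54), and normexp gave a call in the other direction, −0.50 (adjusted p = 0.0263). The stretches of Hoxd9 and Hoxd10 printed above lie next to each other in the cluster and on the 2 sides of this change in size.

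Within a paralogue group the clusters differed in size. In group 4 the difference was 0.43 for Hoxa4 and 2.94 for Hoxb4, but 7.65 for Hoxc4 and at least 6.77 for Hoxd4. In group 6 it was 1.02 for Hoxa6 and 5.01 for Hoxb6, but 7.61 for Hoxc6. In group 5 the values were closer, at 3.87 for Hoxa5, 2.45 for Hoxb5 and 4.20 for Hoxc5, and in group 3 they were 3.08 for Hoxa3, 3.21 for Hoxb3 and at least 3.61 for Hoxd3. Differences are compared here and not levels. Each belongs to its own probe, and the difference between paralogues was not tested.

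The cΔex3 arrays differed among themselves by cluster. Array 4 lay above the other 3 cΔex3 arrays for all 8 Hoxb genes that rose, by a median of 1.5 and by 1.22 to 3.45, and for 4 of 5 Hoxd genes, the median over the 5 being 1.77. The second Hoxb3 probe shared this only weakly, at −0.96 on array 4, against −1.08, −1.25 and −1.24 on arrays 1 to 3. It lay below the other 3 for all 5 Hoxc genes that rose, by a median of −0.98, and for 5 of 8 Hoxa genes and above them for 0 of 8. Over all tested genes array 4 was above the other 3 for 29% and below for 40.6%, with a median of −0.12. This split was seen in the data and has no test, since it rests on 1 array from 1 mouse.

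Markers of other tissues moved with the same array. The summed signal of 12 epididymis genes was 2.94, 26.7, 141 and 946 times the 75th percentile on cΔex3 arrays 1 to 4, against 7.53, 7.19 and 5.62 times on the control arrays, with 11 of 12 above background on array 4. That of 8 testis germ cell genes was 16.2, 10.2, 7.86 and 148 times, against 0.814, 1.04 and 0.785 times. The adipocyte sum was 1750, 2070, 2010 and 1090 times and that of 9 kidney genes 17.5, 17.2, 5.18 and 35.6 times, so that array 4 had the lowest adipocyte sum and the highest kidney sum of the cΔex3 arrays. Cdh16 and Lrp2 carried 87.5% to 95.4% of the kidney sum on the cΔex3 arrays, and by the median of the list array 4 (−2.73) was not the highest (array 2, −2.67). The part of these markers in the split by cluster was not tested. Without array 4, 25 Hox genes were higher, against 27.3% of all tested genes. The control arrays were not uniform either. The summed signal of 8 skeletal muscle genes was 33.4, 0.471 and 0.6 times the 75th percentile on control arrays 1 to 3. On cΔex3 arrays 1 to 4 it was 3, 2.06, 1.68 and 2.99 times. The part of these muscle genes in the Hox values was not tested.

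**Figure D5:**
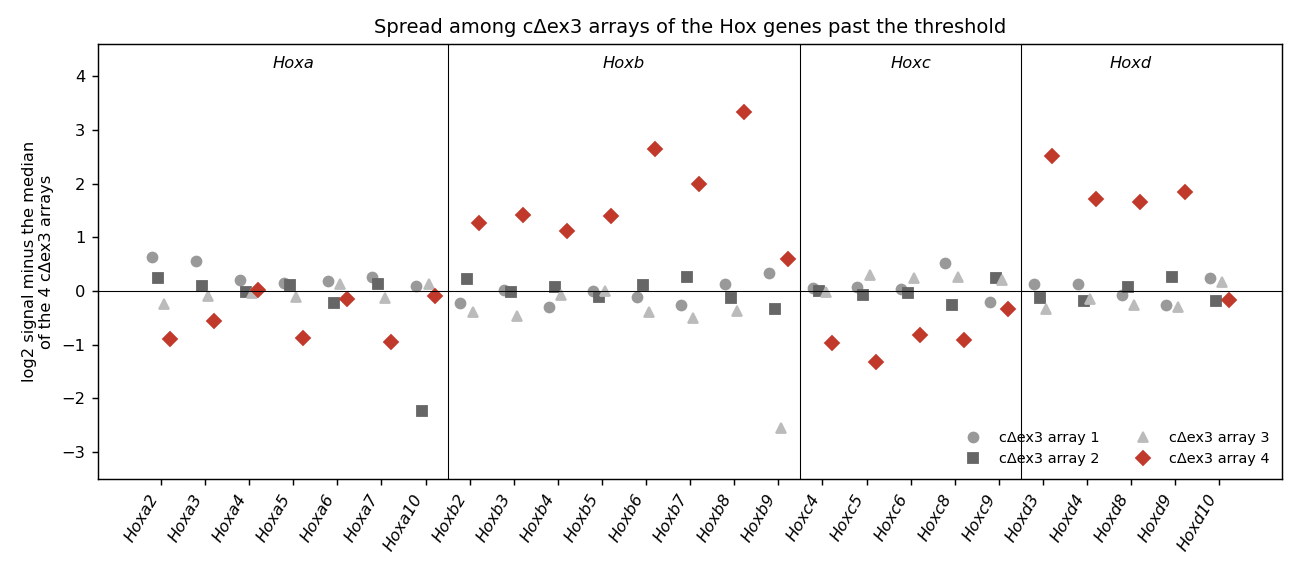
Here 25 of the Hox genes that rose are shown on the 4 cΔex3 arrays as their log2 signal minus the median of those arrays, with clusters side by side and array 4 as red diamonds. Array 4 lies above the other arrays at all 8 Hoxb genes and 4 of 5 Hoxd genes and below them at all 5 Hoxc genes.

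Partners of the Hox proteins went in both directions. Hox proteins bind DNA together with TALE homeodomain partners of the Pbx, Meis and Pknox families. Of 9 tested, 4 rose and 1 fell, with a median of 0.37, where 24% of all tested genes were higher and 29% lower. Meis1 had 2.45, 1.91, 2.20 and 1.85 on the cΔex3 arrays, against 0.51, 0.34 and 0.47 on the control arrays (1.66; adjusted p = 0.00058), and Meis2 rose by 1.1 (adjusted p = 0.00834). Both Meis1 and Meis2 were higher on every cΔex3 array than on any control array. Meis3 differed by −0.18 (adjusted p = 0.442), and its groups overlapped.

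Retinoic acid sets where Hox genes start in the embryo, and Cdx proteins and Gdf11 act on the posterior groups. Of 17 tested genes of retinoic acid metabolism, its receptors and these regulators, 4 rose and 8 fell, with a median of −0.65. The share higher was close to the 24% of all tested genes, and the share lower was above their 29%. Cyp26a1 had the largest difference of the list, −7.01 (adjusted p = 0.000793). The retinoic acid synthases went in both directions. Aldh1a2 and Aldh1a3 rose by 4.64 (adjusted p = 6.11e-05) and 4.26 (adjusted p = 0.000269), whereas Aldh1a1 fell by 2.44 (adjusted p = 0.00127). The receptor gene Rxra fell by 2.24 (adjusted p = 0.00034). Aldh1a2 had 1.23, 1.24, 1.55 and 2.24 on the cΔex3 arrays, against −2.63, −3.47 and −3.12 on the control arrays, and was highest on array 4.

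Polycomb proteins keep silent Hox genes off and MLL complexes keep active ones on. Of 18 Polycomb genes tested, 7 rose and 3 fell, with a median of 0.36, against 24% and 29% of all tested genes. Among them Cbx6 rose by 2.59 (adjusted p = 0.000205) and Phc1 by 1.60 (adjusted p = 0.000562), and Cbx2 fell by 2.00 (adjusted p = 0.000577). Ezh2, the H3K27 methyltransferase of PRC2, differed by 0.11 (adjusted p = 0.762). Of 9 genes of MLL complexes and H3K27 demethylases, 1 rose (Kdm6b, 0.82; adjusted p = 0.005), under the share of all tested genes, and 2 fell, Men1 by 1.61 (adjusted p = 0.000919) and Wdr5 by 1.13 (adjusted p = 0.00179).

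Of 12 tested genes that flank the clusters, 2 rose and 4 fell, with a median of −0.14, shares near the 24% and 29% of all tested genes. Hibadh, an enzyme gene beside Hoxa, fell by 1.81 (adjusted p = 0.000996) and Evx2, a homeobox gene next to Hoxd13, fell by 1.46 (adjusted p = 0.00504). Skap1, a gene of lymphocyte signalling beside Hoxb, rose by 2.46 (adjusted p = 0.0171), with 0.33, 0.46, 0.32 and 2.84 on the cΔex3 arrays, against −1.44, −1.87 and −1.11 on the control arrays. Array 4 thus stood high at Skap1, but not at all listed genes beside Hoxb. Snx11 had 2.67, 3.29, 3.24 and 2.50 on the cΔex3 arrays, so that array 4 was the lowest. Ttll6 had −1.90, −2.03, −3.41 and −2.52, with array 4 within the others. Cbx1 had −3.21, −3.29, −3.39 and −3.06, with array 4 slightly the highest.

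Antisense transcripts inside the clusters were read by probes of their own. Hoxd3os1 had −0.89, −0.90, −1.32 and 0.25 on the cΔex3 arrays, against −6.31, −5.62 and −7.85 on the control arrays, and rose by 5.88 ± 0.59 (SE; adjusted p = 0.00028), beside Hoxd3 with at least 3.61. Hoxa11os had −3.28, −4.00, −3.40 and −3.80, against −3.19, −2.98 and −3.06, a difference of −0.54 (adjusted p = 0.0757). The fitted difference of Hoxa11 beside it was 1.81, not measured on the control side. Hottip, the long noncoding RNA at the 5′ end of Hoxa, was above background on 0 of 7 arrays. Evx1, the homeobox gene beyond it, had −9.28, −7.55, −5.25 and −1.65, against −8.05, −7.92 and −7.75, and was above background on 2 cΔex3 arrays, highest on array 4.

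Of 20 other transcription factors linked to position in connective tissue, 14 were tested, 9 rose and 1 fell, where 24% of all tested genes were higher and 29% lower. Of the 9 that rose, 3 were above background on no control array and so entered the test through the cΔex3 arrays, and 4 were above it on all 3 control arrays. Twist2, a dermal fibroblast factor, had 0.62, 0.80, 0.39 and −0.30 on the cΔex3 arrays, against −4.08, −4.20 and −4.49 on the control arrays (4.64; adjusted p = 4.03e-05). Meox2, a mesodermal homeobox gene, rose by 8.59 (adjusted p = 0.000124). Tbx18, a T-box gene of body wall and dermal papilla mesenchyme, was at least 8.39-fold higher (adjusted p = 0.000128 for the fitted difference of 5.28). These 3 genes had their lowest cΔex3 value on array 4. Emx2, a homeobox gene of the urogenital tract and forebrain that was looked at after its values were seen, was highest there, with −1.72, −2.14, −3.35 and 0.93 on the cΔex3 arrays, against −8.03, −7.88 and −7.75 on the control arrays, and was at least 17.5-fold higher (adjusted p = 0.00134 for 6.32).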

How the data were processed

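Per the labels' protocols, RNA of sorted cells (10 ng) was amplified, labelled with Cy3 and hybridised to 7 Agilent 1-colour mouse arrays. Per the file headers, Agilent Feature Extraction 10.7.1.1 gave the deposited intensity used here, the processed signal, background-subtracted and spatially detrended but not scaled between arrays, as well as raw median spot and background intensity and 0 or 1 flags. The authors also deposited log2 values for the whole series, scaled by a method not given in the sources used here; their medians were 7.519 to 7.530, and they matched the arrays' signals after normexp and quantile normalisation with correlations of at least 0.9999; their background offset stays unknown. They served as an alternative.

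Header and file name disagree on the slide row of control array 3 and cΔex3 array 1; the header was followed. Processed signals were put on the log2 scale, and the 75th percentile of an array's spots other than controls was subtracted. Outlier spots were dropped and spots of a probe averaged, giving 55681 probes, of which 49 lacked a value on some array. Gene names came from matching probe accessions to a RefSeq table (GRCm38.p6). Tests were run on named probes well above background on 3 or more of 7 arrays, and the brightest tested probe over all arrays stood for the gene (18026 genes). 0 spots were saturated.

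Differences were fitted in R 4.3.3 with limma 3.58.1 (lmFit, then eBayes; two-sided, without covariates), adjusted by Benjamini-Hochberg over all tested genes at 0.05. All adjusted p-values come from limma. Where no array of a group was above background, "at least N-fold" sets the brighter group's mean against a floor, averaged over the arrays of the dimmer group: the lowest signal of any probe above background there, or the probe's own signal if higher; the p belongs to the fitted difference, and medians "at their bound" put such genes there, or at 0 where the bound is under 1-fold. Marker lists are given as the sum of linear signals over the array's 75th percentile. Steps were tested on simulated data.

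Values on every array are given for the tested Hox genes past the threshold with the smallest p, up to 6 per cluster. They are also given for those whose groups do not overlap and for those not past the threshold. Of each other gene list up to 3 tested members with the smallest p are named. Ezh2, Evx1, Emx2, Aldh1a1, Cyp26a1, Meis3, Snx11, Ttll6 and Cbx1 were added after their values were seen. So were the genes of the sort and the antisense and noncoding genes of the clusters. The members, gene lists and tests were chosen with earlier results of these data known. A Hox gene and a partner gene are counted but not reported singly here. The sources used here name no pairing by replicate number, and correlations of deviations were −0.009, −0.001 and 0.018 for equal numbers. Alternatives were quantile, no scaling, another percentile, normexp (offset 50, on the median spot intensity in place of the mean), the deposited log2 values, other filters, the mean of a gene's probes, leaving out each array, arrays of 1 mouse, a replicate block, the slide row as a block and a variance trend; fits within a slide row were added after seeing the data. The number of arrays limits the precision.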

Additional observations from a re-analysis of the deposited data

Results flagged for a closer look

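In 6 of the 30 tested Hox genes a single cΔex3 array stood so far from the other 3 that its gap exceeded Dixon's 95% critical value for 4 values, where 6.66% of all tested genes did so and chance gives about 1 in 20. For 5 of the 6 this was array 4. Hoxb8 was at 3.76 on it, next to 0.56, Hoxb6 at 3.68, next to 1.15, and Hoxb5 at 1.01, next to −0.39. Hoxd3 was at −0.12 on array 4, next to −2.50, and Hoxc4 was at 1.26, below the nearest other value of 2.21. For Hoxa10 it was array 2, at −6.45 and not well above background there, next to −4.30.

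The antisense transcript Hoxd3os1, which the rule for members leaves out, was 5.88 higher on the cΔex3 arrays than on the control arrays, with 4 of 4 arrays above background against 1 of 3.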

How the results depend on the processing

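Over 19 other settings the number of Hox genes called higher stayed between 21 and 28 in all but 1, against 26, while 16.6% to 55.9% of all tested genes were higher, the most without scaling, where 28 Hox genes were. The exception was the test of only probes above background on all 7 arrays, with 15 of 17 tested. Within slide row 2 it was 8. Leaving out 1 array at a time gave 23 to 26 higher and 1 to 1 lower, against 18% to 27.3% and 22.2% to 30.9% of all tested genes. The number lower was 1, and it was 0 (limma; 0 at an unadjusted p under 0.05) without scaling and 0 (also 0 unadjusted) within slide row 2, 2 with normexp and 2 with no filter on dim probes. The fit with a replicate block gave 25 higher and 1 lower. The sources used here name no shared origin for equal replicate numbers. Under this fit Hoxa4 (0.44) was not past the threshold and Hoxc10 turned to −0.30. Signs turned with normexp for Hoxa4 (−0.12), Hoxa9 (−0.14), Hoxa10 (−0.06), Hoxa11 (−0.43), Hoxc10 (−0.46) and Hoxd10 (−0.50), for Hoxa9 with the mean of its probes (−0.23), and for Hoxc10 within slide row 2 (−0.13). For Hoxc10, leaving out 1 array gave −0.30 to 0.86. Over all settings and genes, 550 values kept direction and side of the threshold, 51 lost it, 5 gained it and 11 turned sign; the causes were not tested. The count of Hox genes above background ranged from 26 to 33 for cΔex3 and from 15 to 23 for control. The median of all genes moved from −0.08 to 0.13 with quantile scaling, 0.09 with another percentile and 0.11 in the deposited values. For the 10 tested genes above background on no control array, the signal limits the value to a bound.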
